A study of Mus musculus with 6 samples.

Results

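The genes described here are the D-type cyclins Ccnd1, Ccnd2 and Ccnd3, their kinases Cdk4 and Cdk6, and the E-type cyclins Ccne1 and Ccne2. These 7 genes were chosen by symbol, for their place in the cell cycle, from the 51804 gene symbols of a transcript-level RNA sequencing table of mouse kidney. The table covers 6 libraries from tissue labelled kidney. In 3 of them the genotype is Ccnb1f/f;Cdh16-Cre, that is, floxed alleles of Ccnb1 (cyclin B1) together with Cre recombinase under the promoter of Cdh16, a cadherin of kidney tubules. The 3 controls are Ccnb1f/f, so they carry the floxed alleles too and lack the Cre. The series concerns cyclin B1 loss in renal tubule cells and its bearing on G2/M arrest, ageing and fibrosis of the kidney. The sources used here do not give age, sex, strain or the number of animals behind a library, so each p-value reflects only how far these libraries spread, and part of that spread may be technical. Kidney tissue also contains endothelium, stroma and leukocytes, where the Cdh16 promoter is not known to act, and in bulk RNA fewer cells of a type and less RNA per cell cannot be told apart.

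D cyclins are made in response to growth signals in G1, the phase before DNA synthesis. They bind Cdk4 or Cdk6, and the active complexes phosphorylate the retinoblastoma protein and its relatives Rbl1 and Rbl2, which releases E2F transcription factors. E2F factors then switch on the genes of cyclin E, whose complex with Cdk2 drives entry into S phase. Differentiated kidney tubules divide rarely and are known to re-enter the cycle after injury.

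The libraries held 16061435 to 21261226 estimated counts, so the limit set by a count of 0 (3 counts) equals 0.141 to 0.187 CPM (counts relative to the size of the library; counting error only). Ccnb1, the targeted gene, had 18, 15 and 11 counts in the labelled knockout libraries and 11, 17 and 7 in the controls, so its level cannot serve as a check of the labels, and groups are named by label throughout. Markers of kidney tubules were abundant. The 6 proximal tubule markers summed to between 13572 and 17094 CPM, and Cdh16 stood at 996 to 1189 CPM. The 7 markers of dividing cells, Mki67 and Top2a among them, summed to 7.76 to 15.4 CPM.

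Most estimated counts of Ccnd3 were assigned to transcripts with a downstream start. GENCODE M21 annotates 13 transcripts that begin between bases 47505051 and 47505241 of chromosome 17 and 8 that begin between 47593436 and 47597164. The downstream transcripts took 95.9%, 98.7% and 98.6% of the gene's estimated counts in the labelled knockout libraries and 98.2%, 98.3% and 97.3% in the controls. The upstream transcripts took 1.27% to 4.12%. The leading transcript, ENSMUST00000182209, starts 88419 bases downstream of the first upstream start. The 250 bases before the RefSeq start at each place are shown because the counts separate these starts, and the window of Cdk4 for its number of E-boxes (RefSeq, GRCm38.p6, each on the plus strand, 5′ to 3′).
Ccnd3 upstream start, chr17:47504801-47505050: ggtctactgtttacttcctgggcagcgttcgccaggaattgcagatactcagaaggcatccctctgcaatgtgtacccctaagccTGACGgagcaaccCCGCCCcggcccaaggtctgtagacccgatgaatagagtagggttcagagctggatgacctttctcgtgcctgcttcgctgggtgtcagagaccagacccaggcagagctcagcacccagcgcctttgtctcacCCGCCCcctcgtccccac
Ccnd3 downstream start, chr17:47593217-47593466: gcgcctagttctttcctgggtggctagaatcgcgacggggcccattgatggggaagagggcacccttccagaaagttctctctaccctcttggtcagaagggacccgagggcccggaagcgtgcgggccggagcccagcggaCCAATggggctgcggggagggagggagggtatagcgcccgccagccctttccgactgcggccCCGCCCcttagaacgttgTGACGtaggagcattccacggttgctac
Cdk4 start, chr10:127063285-127063534: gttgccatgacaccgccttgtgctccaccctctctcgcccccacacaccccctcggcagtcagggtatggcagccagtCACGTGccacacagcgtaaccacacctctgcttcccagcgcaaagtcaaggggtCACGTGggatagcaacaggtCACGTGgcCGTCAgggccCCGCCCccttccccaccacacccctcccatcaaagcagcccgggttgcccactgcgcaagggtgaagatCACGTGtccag

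Capitals mark matches, on either strand, to the GC box GGGCGG, the CCAAT box CCAAT, the core of the cAMP response element TGACG and the E-box CACGTG; no match overlapped another. Among 32851 RefSeq windows of this length, 32.7% hold the GC box, 33.85% the CCAAT box, 17.8% the cAMP response core and 6.02% the E-box. The downstream Ccnd3 window holds a CCAAT box 108 bases, a GC box 46 bases and the cAMP response core 28 bases before the start. The upstream window holds the cAMP response core 165 bases and GC boxes 152 and 18 bases before its start, and no CCAAT match. The Cdk4 window holds 4 E-boxes, and 0.0213% of all windows hold 4 or more, while that of Cdk6 holds 1. These matches describe letters and say nothing of binding. Promoter entries were found for 4 of the 7 genes, and Ccnd1, Ccnd2 and Ccne2 had none.

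Transcripts of Ccnd1, Ccnd3 and Cdk4 dominated this set, and those of the E cyclins were rare. The levels of the members were compared with each other per transcript length, as the authors' FPKM (fragments scaled to transcript length and library total) summed over the transcripts of a gene. Over all 6 libraries Ccnd1 stood at 72.4 ± 25.2 FPKM, Ccnd3 at 48.9 ± 3.71 and Cdk4 at 39.1 ± 3.42 (SD, n = 6). Cdk6, the alternative kinase of D cyclins, followed at 5.66 ± 2.12 FPKM, and Ccnd2 at 2.86 ± 0.239. The E cyclins Ccne2 and Ccne1 came last, at 0.55 ± 0.227 and 0.11 ± 0.0632 FPKM. Ccnd1 and Ccnd3 did not differ beyond their spread, since their ranges overlapped and Ccnd1 was the higher in 4 of 6 libraries. All other neighbours in this order kept separate ranges over the 6 libraries. Cdk6 and Ccnd2 overlapped when only the leading transcript of each was taken, a comparison chosen after seeing the data, at 2.46 to 4.26 FPKM for Cdk6 and 2.47 to 2.92 FPKM for Ccnd2. Ccne2 and Ccne1 then overlapped too, at 0 to 0.46 and 0.05 to 0.19 FPKM.

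**Figure D1:**
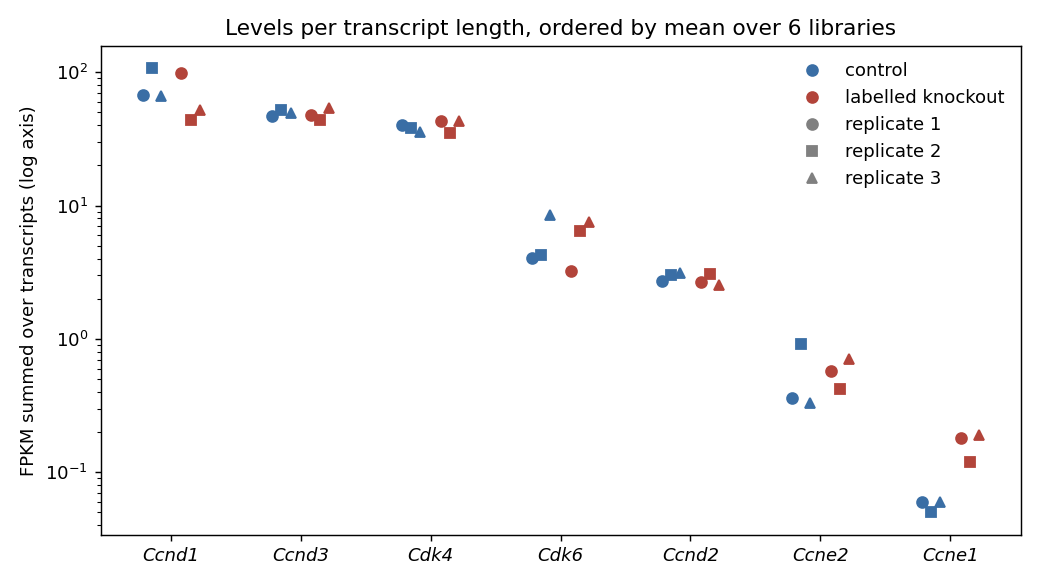
Level of each gene per transcript length (vertical axis, FPKM summed over transcripts, log scale) in the 6 libraries, ordered by mean; colour gives the group and shape the replicate. Ccnd1 spreads from 43.8 to 107 FPKM across both groups, Ccnd3 and Cdk4 stay within narrow bands, and Ccne1 lies at 0.05 to 0.19 FPKM.

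Between groups, no member passed the test. Of the 7 members, 6 passed the filter on low counts, and 0 of these 6 were called by the edgeR quasi-likelihood test (Benjamini-Hochberg adjusted p under 0.05 over 15017 genes), which called 0.0133% of all genes tested. None of the 6 reached an unadjusted p under 0.05 (3.23% of all genes did), and DESeq2 and limma called 0 members. The log2 fold changes (labelled knockout over control) were above 0 for 2 members and below 0 for 4, with a median of -0.05, beside -0.01 for all genes tested. For 1 of the 7 members, Ccne1, the groups did not overlap, against 8.29% of the 17010 genes with counts in every library and 8.16% of the genes tested.

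**Figure D2:**
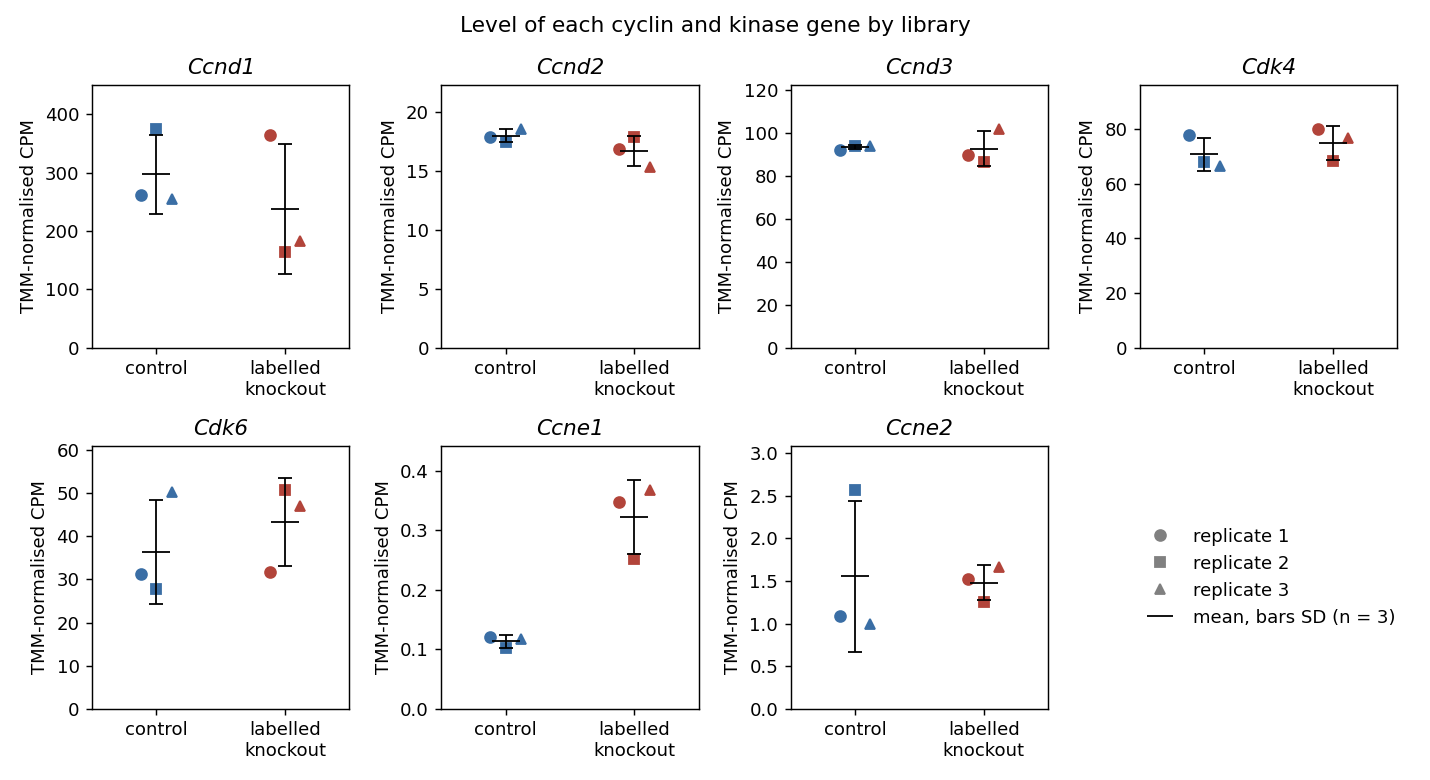
TMM-normalised CPM (vertical axes, starting at 0) of each member in each library, with the mean and SD of 3 libraries; shapes give the replicate. The groups overlap in every panel except that of Ccne1, where the controls lie at 0.101 to 0.121 CPM and the labelled knockout libraries at 0.252 to 0.369 CPM.

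Among the D cyclins, Ccnd1 varied most between libraries and Ccnd2 and Ccnd3 hardly varied. Ccnd1, the D cyclin most tied to growth factor signals (ENSMUSG00000070348, chr7:144929931-144939925, minus strand), stood at 365, 165 and 183 CPM in the labelled knockout libraries and at 261, 375 and 255 CPM in the controls. Knockout 1 and control 2 were the highest, and knockout 2 and 3 the lowest, so the groups overlapped. The means were 238 ± 111 against 297 ± 67.8 CPM (SD, n = 3). The log2 fold change was -0.32 (SE 0.31, edgeR adjusted p = 0.999), and its 95% confidence interval reached from 0.491-fold to 1.30-fold. Without knockout 1 the value was -0.77 (SE 0.20, edgeR adjusted p = 0.89), and without control 2 it was -0.12.

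Ccnd2, a D cyclin known for its roles in proliferating pancreatic islet, ovarian and lymphoid cells (ENSMUSG00000000184, chr6:127125162-127152193, minus strand), stood at 16.9, 17.9 and 15.4 CPM in the labelled knockout libraries. The controls stood at 17.9, 17.5 and 18.6 CPM. The lowest value belonged to knockout 3, and the groups overlapped narrowly. The log2 fold change was -0.11 (SE 0.12), with an interval from 0.764-fold to 1.13-fold.

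Ccnd3, the D cyclin prominent in lymphoid and differentiated tissues (ENSMUSG00000034165, chr17:47505051-47599691, plus strand), stood at 89.8, 86.6 and 102 CPM in the labelled knockout libraries. The controls lay at 92.3, 94.2 and 94.2 CPM, inside that range. The log2 fold change was -0.01 (SE 0.10), and the interval, 0.846-fold to 1.16-fold, was the narrowest of the set.

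The makeup of D cyclin transcripts followed Ccnd1. Its share of the summed D cyclin FPKM was 66.3%, 48.2% and 47.8% in the labelled knockout libraries and 57.8%, 66.1% and 55.6% in the controls. Ccnd3 made up 31.9%, 48.4% and 49.9% against 39.8%, 32% and 41.8%, and it narrowly exceeded Ccnd1 in knockout 2 and knockout 3. With leading transcripts alone the order turned in knockout 2, at 42.3 FPKM for Ccnd3 and 43.1 FPKM for Ccnd1. Ccnd2 made up 1.79% to 3.38% in any library. The groups overlapped for all 3 shares, and the exact two-sided permutation test gave p = 0.6, 0.9 and 0.5 for Ccnd1, Ccnd2 and Ccnd3 (Benjamini-Hochberg adjusted p = 0.9 for each, over 3 comparisons), where 0.1 is the smallest p that 3 against 3 allows.

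**Figure D3:**
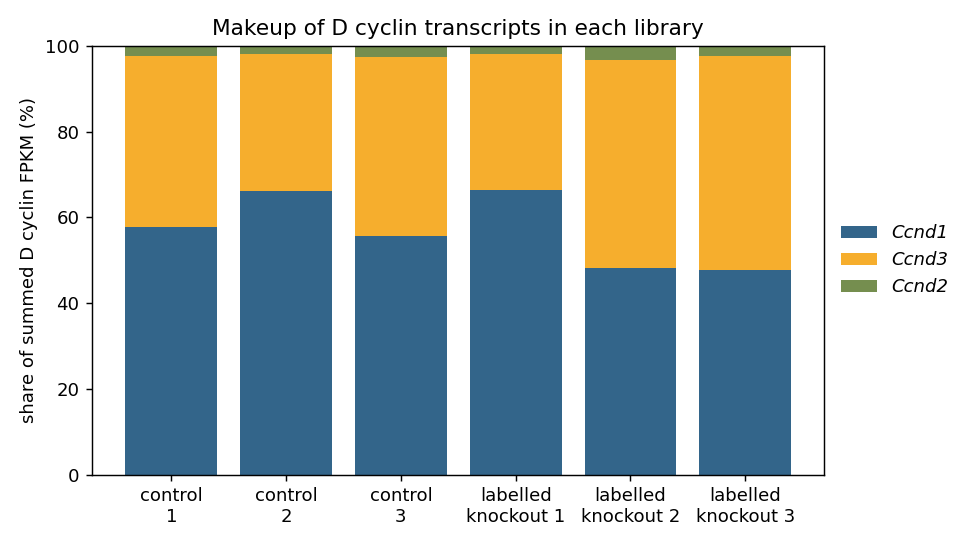
Share of Ccnd1, Ccnd3 and Ccnd2 (stacked bars, percent of their summed FPKM) in each library. Ccnd1 takes 47.8% to 66.3% and Ccnd2 at most 3.38%, and knockout 1 resembles control 2 (66.3% and 66.1% Ccnd1) more than the other libraries with its label.

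The kinases showed the same contrast between a steady and a variable gene. Cdk4, the main kinase partner of D cyclins in many epithelia (ENSMUSG00000006728, chr10:127063534-127067920, plus strand), stood at 80.1, 68.2 and 76.6 CPM in the labelled knockout libraries. The controls stood at 77.8, 68.1 and 66.6 CPM. Each group held both high and low values, and they overlapped. The log2 fold change was 0.08 (SE 0.11), with an interval from 0.889-fold to 1.26-fold.

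Cdk6, the kinase best known from blood cells (ENSMUSG00000040274, chr5:3341485-3531008, plus strand), stood at 31.6, 50.9 and 47.2 CPM in the labelled knockout libraries. The controls stood at 31.4, 27.7 and 50.3 CPM. Knockout 2, knockout 3 and control 3 formed the high values, and knockout 1, control 1 and control 2 the low ones, so the high and low values crossed the groups. The log2 fold change was 0.25 (SE 0.25, edgeR adjusted p = 0.999), with an interval from 0.79-fold to 1.78-fold. It was 0.55 without control 3 and 0.08 without control 2, and 0.03 in limma on log2(FPKM + 1). In the FPKM sum of Cdk6 the leading transcript made up 46.7% to 84.7%.

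Per length, Cdk4 exceeded Cdk6 in every library. The ratio of their FPKM values was 13.3, 5.49 and 5.64 in the labelled knockout libraries and 9.95, 8.92 and 4.21 in the controls. The groups overlapped (exact two-sided permutation test on log2 ratios, p = 1). With leading transcripts alone the ratio was 11.6, 6.18 and 7.24 against 11.7, 10.9 and 6.31 (exact permutation p = 0.7). Knockout 1, control 1 and control 2 had the highest ratios by either measure. Only knockout 1 with control 1, and knockout 2 with control 3, traded places.

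**Figure D4:**
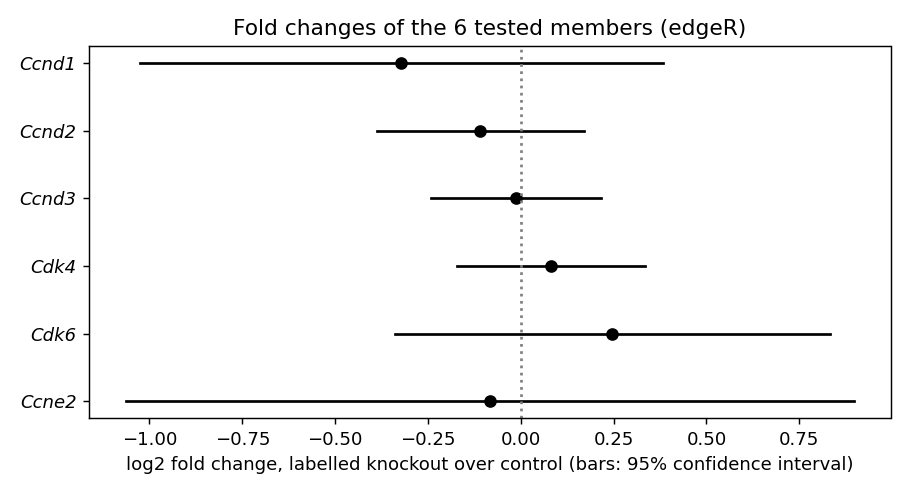
Log2 fold change of each tested member (labelled knockout over control, horizontal axis; bars are 95% confidence intervals from edgeR). Each interval includes 0; those of Ccnd3 and Cdk4 are the narrowest, -0.24 to 0.22 and -0.17 to 0.34, and that of Ccne2 the widest, -1.06 to 0.90.

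The E cyclins had few counts, and Ccne1 was at the limit of this depth. Ccne2 (ENSMUSG00000028212, chr4:11191351-11204779, plus strand), an E2F target that activates Cdk2 at the start of S phase, stood at 1.53, 1.25 and 1.66 CPM in the labelled knockout libraries. The controls stood at 1.09, 2.58 and 0.996 CPM. Control 2 was the highest library and the other 2 controls the lowest, so the control group spanned all values of the other group. The log2 fold change was -0.08 (SE 0.43; 0.50 without control 2), and the interval ran from 0.478-fold to 1.86-fold.

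Ccne1, the other E cyclin (ENSMUSG00000002068, chr7:38097984-38107534, minus strand), was below the filter and was not tested. It had 6, 4 and 8 counts in the labelled knockout libraries and 2 in each control. The groups did not overlap, at 18 counts against 6 in all, and p was 0.1 by exact two-sided permutation, the smallest that 3 against 3 allows. The ratio of pooled counts per total was 2.93, with an exact 95% interval of 1.11 to 9.02 that covers counting error only. With no filter on low counts edgeR gave a log2 fold change of 1.47 (SE 0.84, adjusted p = 0.941), and DESeq2 gave 1.52.

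At the level of transcripts, most members were represented by a single leading transcript. The 7 genes have 59 transcripts in the table. Of the estimated counts, ENSMUST00000093962 took 99.1% to 99.9% for Ccnd1, ENSMUST00000000188 took 97.9% to 100% for Ccnd2, and ENSMUST00000165117 took 93.3% to 99.2% for Cdk6. Cdk4 was more divided, with ENSMUST00000006911 at 75.7% to 81.8%. Transcripts of Cdk4 that GENCODE classes as retained introns took 11.8%, 16.2% and 19.2% in the labelled knockout libraries and 10.3%, 20.7% and 13.3% in the controls, with no separation of the groups.

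The FPKM share of the leading transcript of Ccnd1 was 98.5%, 98.5% and 95.7% in the labelled knockout libraries and 99.3%, 99% and 99.8% in the controls. It was the only such share, among the 6 members compared, whose groups did not overlap, where 9.91% of 11116 genes did so. The exact permutation test gave p = 0.1 and an adjusted p of 0.6 over the 6 members. The remainder lay on transcripts with retained introns, which held 39.8, 19.2 and 35.5 counts against 15.3, 30.8 and 4.77, so these counts overlapped. As a share of estimated counts the leading transcript took 99.4%, 99.3% and 99.1% against 99.6%, 99.6% and 99.9%, again without overlap (exact permutation p = 0.1), and the difference was -0.46 percentage points in place of -1.78. Estimated counts of Ccne2 were divided between 2 coding transcripts that share 99.9% of the shorter one's exonic bases. ENSMUST00000108324 took 100% of the gene's FPKM in knockout 2, control 1 and control 3 and 0% in control 2, so the assignment of reads between such similar models is uncertain, and levels of Ccne2 are given as the gene's sum.

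Neighbouring genes overlap several members on the opposite strand, and the sources used here do not state whether the libraries keep strand. Without strand, reads in shared exons cannot be told apart. Exons of Ints8 share 609 of the 2908 bases of the leading Ccne2 transcript, and Ints8 had 507 to 719 counts per library, many more than Ccne2. Oraov1 shares 1100 of 3740 bases with Ccnd1, Tspan31 shares 641 of 2053 with Cdk4 and Bysl shares 359 of 1977 with Ccnd3. No overlapping gene was listed for Ccne1, and the processed copy Ccnd3-ps was listed at 0 counts.

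The spread of Ccnd1 and Cdk6 within groups was wide for genes of their level. The within-group SD of log2 CPM was 0.49 for Ccnd1, and 96.5% of the 1278 tested genes within 2-fold of its mean CPM had a lower one, CPM here being a measure of read number and not of level per length. For Cdk6 it was 0.41, and 94.7% of 4868 such genes had a lower one. It was 0.08 for Ccnd2 (6.43% lower), 0.09 for Ccnd3 (17.5%) and 0.12 for Cdk4 (34.8%), and 0.52 for Ccne2 (64.1%). These percentages describe the 6 libraries.

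Sums of some cell type markers moved with Ccnd1 across libraries rather than with the label. Knockout 1 and control 2, the libraries with most Ccnd1, also had the highest sums of 4 marker lists, which were singled out here for that match. The 6 endothelial markers summed to 377 and 386 CPM there, against 292 to 343 in the other 4 libraries. The 3 principal cell markers, Aqp2 among them, summed to 462 and 532 CPM, against 256 to 391, and the 3 podocyte markers to 343 and 408 CPM, against 310.2 to 325. The 6 T cell markers summed to 8.75 and 7.91 CPM, against 5.21 to 7.89, so control 2 and control 3 were nearly equal there. Single T cell markers had few counts and did not all follow the sum. Cd8a was lowest in knockout 1, at 1.33 CPM, and highest in control 2, at 2.69 CPM. No marker of these 4 lists was at 0 in all libraries, and edgeR called 0 of those tested between groups. In the endothelial list, Cdh5 was highest in control 1, at 41.9 CPM. The other marker lists did not share this top pair. Markers of dividing cells summed highest in knockout 1 and control 1, at 15.4 and 13.5 CPM, and the proximal tubule sum was lowest in control 2, at 13572 CPM. By label, all 6 fibroblast and pericyte markers were lower in the labelled knockout libraries, at 86.0 to 125 CPM in sum against 117 to 154, and all 7 macrophage markers were higher, at 136 to 185 against 121 to 136. EdgeR called 0 of these 13, and 4 fibroblast markers had an unadjusted p under 0.05, as did 3.23% of all genes tested. All 3 intercalated cell markers were also lower, at 124 to 138 CPM in sum against 135 to 190, and edgeR called 0 of them. Among them, Slc4a1 had a log2 fold change of -0.57 (SE 0.17, edgeR unadjusted p = 0.0093, adjusted p = 0.999). The part of any of these cell types in the levels of the cyclins was not tested.

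For each of the 5 members with a mean of 2 CPM or more, the 3 genes most like it were taken by Pearson's r of log2 CPM over the 6 libraries, out of 10607 genes with a mean of 5 CPM or more. Since r was the ground of choice, it is a description with no p. Ccnd1 was closest to Slc2a4, the insulin-responsive glucose transporter (r = 0.997), Cav1, the coat protein of caveolae (0.993), and Stom, stomatin (0.982). Cav1, for example, stood at 33.1, 22.1 and 24.6 CPM in the labelled knockout libraries and 28, 33.6 and 28.4 CPM in the controls, the same high pair as Ccnd1. Cdk6 was closest to Mfsd2a, a lysophospholipid transporter (r = 0.996), which stood at 14.1, 49 and 36.1 CPM against 12.6, 8.41 and 42.2 CPM. Mfsd2a thus had the same 3 high and 3 low libraries as Cdk6, with a wider range. Gdap2 (0.990) and Zfp830 (0.988) came next. Between Ccnd1 and Cdk6 themselves r was -0.836; the 6 points are the same libraries for both genes.

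The steadier members had other closest genes. Cdk4 was closest to Zfp358 (r = 0.994) and to the mitochondrial ribosome genes Mrps27 (0.988) and Mrpl58 (0.982). Ccnd2 was closest to the membrane sheddase gene Adam17 (0.973), to Syt3 (0.970) and to Zswim8 (0.970). Ccnd3 was closest to Atxn1 (0.983), to the katanin-like gene Katnal1 (0.976) and to the growth factor receptor-like gene Fgfrl1 (0.973). EdgeR called 0 of these 15 genes between groups.

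Of the rest of the G1 to S pathway, 1 gene passed the test. Of 100 listed genes in 9 lists, 91 were tested, and edgeR called 1 higher (0.00666% of all genes were called higher) and 0 lower. Log2 fold changes were above 0 for 54 of the 91 and below 0 for 37 (median 0.03), and 4 had an unadjusted p under 0.05. With each library left out in turn, the sign held for 45 of the 91 and turned for 46. The gene called was Mcm6, a helicase subunit and E2F target, at 25.1 ± 7.71 against 2.54 ± 0.777 CPM (SD, n = 3). Its log2 fold change was 3.29 (SE 0.30; adjusted p = 0.0331 in edgeR). Mcm6 was not called by limma or without knockout 2, knockout 3, control 1 or control 3. Its log2 fold change ran from 3.06 to 3.57 with a library left out.

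**Figure D5:**
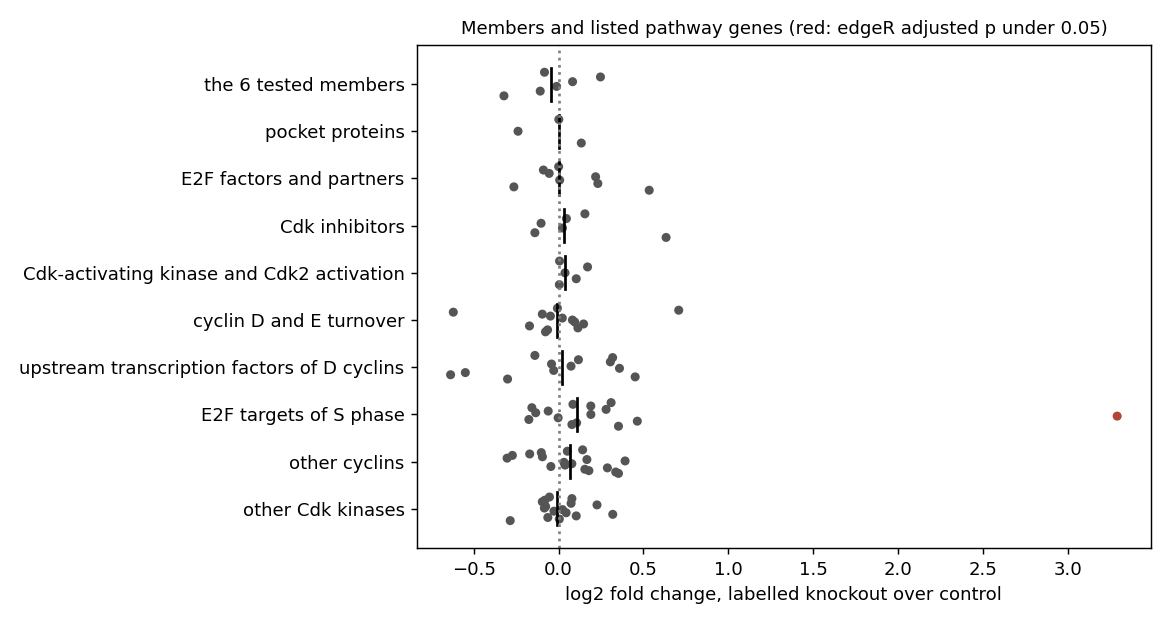
Log2 fold change (horizontal axis, labelled knockout over control) of the 6 tested members and of the tested genes of each pathway list; each point is a gene and each vertical bar a list median. Medians lie between -0.05 and 0.11, and the point at 3.29 is Mcm6.

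Downstream of the D cyclin kinases, 0 of 3 pocket protein genes were called. Rbl2 stood at 103 CPM in each group (log2 fold change 0.00, SE 0.13), and the log2 fold changes of Rb1 and Rbl1 were 0.13 (SE 0.12) and -0.24 (SE 0.29; 0.11 without control 2). Among E2F factors and their partners 0 of 8 tested genes were called. The repressor E2f4 had a log2 fold change of 0.01 (SE 0.13) and the partner Tfdp2 of 0.00 (SE 0.16), while the activator E2f1 stood at 3.81 against 2.63 CPM, a log2 fold change of 0.53 (SE 0.28). The other 14 tested E2F targets of S phase were not called, with log2 fold changes for Pcna at -0.13 (SE 0.09) and Mcm7 at 0.19 (SE 0.14). The list as a whole had a median of 0.11, with 10 above 0 and 5 below. Cdk2, the kinase of cyclin E, stood at 13.4 and 13.3 CPM (log2 fold change 0.00, SE 0.21), and its activating phosphatase gene Cdc25a had a log2 fold change of 0.01 (SE 0.22).

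Inhibitors and activators of these kinases were not called either, 0 of 6 tested inhibitors and 0 of 5 activation genes. Cdkn1b (p27) stood at 48.9 against 53.9 CPM, a log2 fold change of -0.14 (SE 0.14). Cdkn1a (p21) stood at 23.0 against 14.9 CPM, a log2 fold change of 0.63 (SE 0.39). Knockout 3 lay far above the controls, at 37.5 CPM, and without it the log2 fold change was 0.08. Knockout 2, at 18.99 CPM, lay just above the highest control, at 18.88 CPM. Knockout 1, at 12.4 CPM, lay within the range of the controls, so the groups overlapped. The INK4 genes Cdkn2c and Cdkn2d, whose products bind Cdk4 and Cdk6, gave log2 fold changes of 0.05 (SE 0.27) and 0.15 (SE 0.23). Cdkn2b, of the same family, gave -0.10 (SE 0.50). Cdkn2a had 12 counts in knockout 1 and 0 in every other library, and it was not tested. Cdk7, Ccnh and Mnat1, the subunits of the Cdk-activating kinase, gave log2 fold changes of 0.10 (SE 0.14), 0.04 (SE 0.12) and 0.17 (SE 0.17).

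Genes that govern the turnover and transcription of the cyclins gave 0 calls of 13 and 0 of 12. Fbxw7, the ubiquitin ligase receptor for cyclin E, had a log2 fold change of -0.08 (SE 0.15), and Ambra1, a receptor for D cyclins, of -0.17 (SE 0.11). Ddb1 and Skp1a, subunits of ubiquitin ligases, gave log2 fold changes of -0.05 (SE 0.10) and 0.15 (SE 0.10), and Skp2 was listed at 0 in all 6 libraries. The lens crystallin and chaperone gene Cryab, listed for its part in cyclin D1 degradation, had an unadjusted p just under 0.05 and a log2 fold change of -0.62 (SE 0.27). Control 2 was the highest library, at 119.95 CPM, and without it the log2 fold change was -0.28. On the log2 fold change scale, upstream Ctnnb1 was at -0.03 (SE 0.11), Stat3 at -0.04 (SE 0.13), Jun at -0.64 (SE 0.56) and Myc, known to activate Ccnd2 and Cdk4, at -0.30 (SE 0.57). Control 3 set both of the last values, with Jun at 271 CPM against 51.8 and 63.2 in the other controls and Myc at 23.6 CPM against 5.10 and 6.03. Without control 3 the log2 fold changes were 0.53 for Jun and 0.75 for Myc. That list also holds Cdkn1b, which is an inhibitor.

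Other cyclins and kinases gave 0 calls of 18 and 0 of 16. Among cyclins, named for their high CPM (not per length), log2 fold changes stood for Ccni at 0.08 (SE 0.11), Ccng1, a p53 target, at 0.29 (SE 0.11), Ccnl2 at -0.10 (SE 0.12) and Ccny at 0.05 (SE 0.09). Among kinases, the log2 fold change of Cdk16 was 0.07 (SE 0.09), that of Cdk8, the Mediator kinase, 0.32 (SE 0.10) and that of Cdk18 -0.08 (SE 0.17). Ccng1 and Cdk8 had unadjusted p-values of 0.0257 and 0.0101 and adjusted p-values of 0.999 in edgeR.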

How the data were processed

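The authors deposited a table of 128603 transcripts that gives estimated counts, not normalized, next to FPKM values for 6 libraries, 3 per group, and every sample column was mapped by its title. Among the tools in the submitters' processing notes are the aligner HISAT2 2.0.1, the trimmer cutadapt 1.9.1 and Cuffdiff 2.2.1, and the build there is GRCm38. The counting program was not given in the sources used here, nor was strandedness. The labels' extraction protocol mentions cultured cells besides kidney. For 52 transcript values of the members, the deposited FPKM implied 0.997 to 1.00 times the GENCODE M21 exonic length when the column total of the counts was the denominator.

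Gene values are sums of the estimated counts over each symbol, rounded to whole numbers. EdgeR 4.0.16 (R 4.3.3) gave the main test, quasi-likelihood with TMM scaling and its default filter (minimum count 10), with no covariate. P-values are two-sided and were adjusted by Benjamini-Hochberg over the 15017 genes that passed, with a threshold of 0.05. CPM values are TMM-normalised, and an SE is the fold change over the square root of F. Shares and ratios of single genes were tested by exact two-sided permutation. The scripts were tested on simulated data. The floors and the interval of the pooled Ccne1 ratio cover counting error only. The edgeR intervals of the fold changes were built from the SE, so they include the spread between libraries as well.

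The members and gene lists were chosen with earlier results of these data known. The genes named were the 7 members, Ccnb1, called genes and abundant or central genes of the pathway lists, and the 3 genes most like each member. Alternatives were median-of-ratios scaling, no filter, DESeq2 1.42.0, limma 3.58.1 with trend on log2(FPKM + 1) and log2(FPKM + 0.1), sums per gene ID, the replicate number as a block, estimated counts in place of FPKM for shares, and each library left out in turn. The leading transcript alone was added after seeing the data.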

Additional observations from a re-analysis of the deposited data

How the results depend on the processing

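No member was called by edgeR, DESeq2 or limma under any alternative run (0 in each). Over all genes, edgeR called 2, against 5 with no filter, 15 by DESeq2, 1 by limma with either pseudocount and 1 to 6 with a library left out (6 without knockout 1). The fold changes of Ccnd1, Ccnd2, Cdk4 and Cdk6 kept their sign throughout; with a library left out they ran from -0.77 to -0.12, from -0.17 to -0.05, from 0.03 to 0.16 and from 0.08 to 0.55. That of Ccnd3 turned to 0.012 with the leading transcript alone, an alternative chosen after seeing the data, and ran from -0.085 to 0.031 with a library left out. That of Ccne2 turned to 0.36 with the leading transcript alone and ran from -0.32 to 0.50 with a library left out. With a library left out, the share differences in percentage points ran from -0.20 to 0.59 for Ccnd2 among D cyclins, and for leading transcripts from -2.09 to 3.66 (Ccnd2), -0.86 to 2.85 (Cdk4) and -44.5 to 15.7 (Ccne2). The cause was not tested. Limma's filter left out Ccne1 and Ccne2, and Ccne1 was fitted by edgeR without a filter and by DESeq2.

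The labels do not say whether the replicate numbers pair the samples. Deviations of same-numbered libraries correlated at 0.0900, -0.0915 and 0.116 across genes. With 3 libraries per group, these values cannot decide whether same-numbered libraries shared a litter or a day. With the replicate block, edgeR called 2 genes and the fold change of Ccne2 was 0.036. The other values with the block were -0.40 (Ccnd1), -0.11 (Ccnd2), -0.02 (Ccnd3), 0.08 (Cdk4) and 0.26 (Cdk6). Depth limits Ccne1, with at most 8 counts per library.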
